A study of Mus musculus with 14 samples.

Results

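The 135 sites described here are the deepest 5′ monophosphate (5′P) ends that Degradome-seq placed in a named gene, outside genes named as miRNAs, snoRNAs or scaRNAs, in mouse embryonic stem cells (ESCs). They were chosen by 3 conditions. The site had to be in the pile-up tables of both the Drosha and the Dicer experiment, its gene name must not contain Mir, Snor or Scarna, and its mean over the 4 control libraries had to be at least 10 RPM (RPM counts the reads that start at the site, scaled to an equal number of mapped reads in every library). Of 5990 sites in either table, 2595 were in both, 491 of these lay in a named gene, and 378 of the 491 were outside the named small RNAs. The other 243 of the 378 were under 10 RPM. The level in control cells therefore chose the sites, and control levels are described below without a test.

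Degradome-seq was done in 8 libraries, 2 per group. The Drosha groups were ESCs with a floxed Drosha allele (Drosha fl/fl) and CreERT2 at the Gt(ROSA)26Sor locus, either untreated (Drosha control) or given 100 nM 4-hydroxytamoxifen for 72 h and then 48 h without it (Drosha-deficient). The Dicer groups were Dicer fl/fl ESCs transduced with a retrovirus for GFP (Dicer control) or for GFP and Cre (Dicer-deficient), sorted on day 3 and cultured for 2 further days. All cells were grown with LIF on feeder fibroblasts. Only the Drosha-deficient cells were given 4-hydroxytamoxifen, and only the Dicer-deficient cells a virus with Cre. Within each experiment the loss of the gene cannot be told apart from these treatments. The ESC line and the way of deleting the gene differ together between the experiments and cannot be told apart, and because nothing in the labels says that the libraries of a group came from separate cultures, p-values measure only the spread between these libraries, which may be technical. Levels of Drosha and Dicer1 in each library were not analysed here. RNA-seq of the Drosha line, with 3 libraries per group, was used only as the authors' mean log2 CPM over all 6 libraries, in which all 8 pluripotency markers were found at 6.56 to 10.2 and all 8 fibroblast markers at −0.63 to 6.60, with Col1a1 the highest of the fibroblast list. The part of feeder RNA in the results was not tested.

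The 8 libraries had between 28682300 and 34547609 mapped reads. A member had at least 37 reads in every library, with a median of 759 over the 1080 values, which gives a counting error of 16.4% and 3.63% of the value, and intervals of this kind cover counting error only. A floor of 3 reads was 0.0868 to 0.105 RPM, and 0 members were at or under it in any library.

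In Degradome-seq an RNA linker is joined to polyA RNA that carries a 5′P, and the first base of a read marks that end. Such ends arise when an endonuclease such as Drosha or an Argonaute cuts an RNA, when decapping removes the cap of an mRNA, and when exonucleases trim an RNA up to a bound complex. Most mammalian snoRNAs are cut or trimmed out of introns of host genes, many of which encode ribosomal or nucleolar proteins or non-coding RNAs with little other known function, and box C/D snoRNAs carry the C box (TGATGA in DNA letters) a few bases inside their mature 5′ end.

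Many of these sites lay at snoRNAs although the rule allowed no small RNA name, because sites carried the name of the host gene or a provisional Gm name. In GENCODE vM21, 42 of the 135 sites were within 10 nt of the annotated start of a small RNA gene on the same strand, 41 of them snoRNAs and 1 a scaRNA, and 1 further site was inside one. By the same measure 33 of the 243 shared genic sites under 10 RPM were near such a start (31.1% of members against 13.6%). The description as sites outside small RNAs thus holds for gene names only. The C box letters TGATGA, read on the strand of the site in its first 20 bases, were found at 27 of the 135 sites (20%), against 9.47% of the 243 sites under 10 RPM and 3.25% of all 2460 shared sites that are not members. The first letter stood at base 7 of the RNA in 17 sites and at base 6 in 8 sites. Of the 27, 24 were among the 42. The sequences below show 6 of these ends, each with 10 bases before the site in lower case and the first 20 bases of the captured RNA in capitals (GRCm38).
Gm24339 (chr9:15326519-15326548, minus strand): actgaaatagATCAGTGATGAAAATAGCCA
Taf1d (chr9:15315514-15315543, plus strand): accataaatgATGTTGTGATGATGGGCAAA
Gas5 (chr1:161036049-161036078, plus strand): aaggacagtgCCACAATGATGACATCATAT
Rps12 (chr10:23786523-23786552, minus strand): agctacagtgTTTGCATGATGACTTGAATT
Snhg1 (chr19:8724522-8724551, plus strand): ttagatggccACTTAATGATGAACAATGTA
Rack1 (chr11:48800856-48800885, plus strand): aagacgggcgGAGCAATGATGACCCCAACA
The 6 lie in different genes, and in each the letters TGATGA begin at base 6 or 7 of the capitals.

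**Figure D1:**
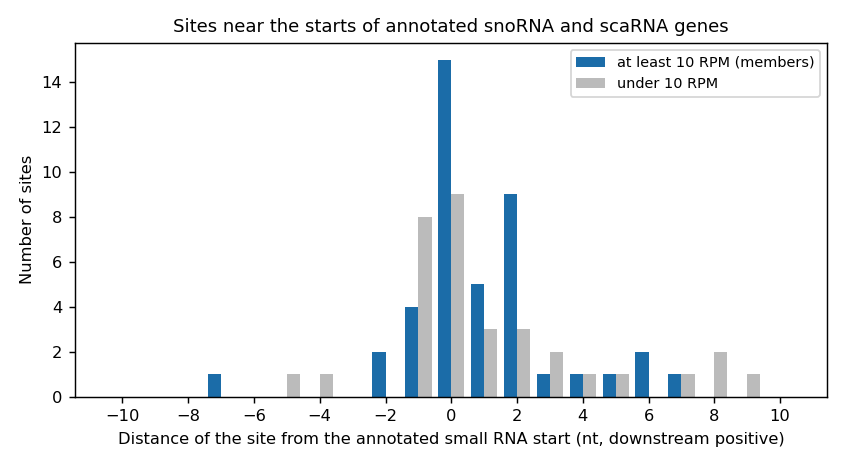
Number of sites (vertical axis) at each distance in nt from the annotated start of the nearest snoRNA or scaRNA gene (horizontal axis, downstream positive), for members and for shared genic sites under 10 RPM. Of the members, 15 were exactly at the start, 9 were 2 nt inside it and 5 were 1 nt inside it.

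A second set of sites lay at other landmarks of the annotation. Of 13 sites within 10 nt of an annotated transcript start, 6 were exactly at it, and 5 sites were the first base of an intron and 1 the first base of an exon. These classes, and all others by position, were set after the sites had been seen. The sequences are shown because the landmark is visible in them. The first 3 are transcript starts of Gas5, a non-coding snoRNA host RNA, Ybx1, which encodes an RNA-binding cold shock protein, and Tmsb10, which encodes an actin-binding thymosin.
Gas5 (chr1:161035156-161035185, plus strand): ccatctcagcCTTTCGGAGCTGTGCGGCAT
Ybx1 (chr4:119294481-119294510, minus strand): cattctcgctAGTTCGATCGGTAGCGGGAG
Tmsb10 (chr6:72958380-72958409, minus strand): ccgctcttttGTCTCTTGCTGCAGCAACGA
The next 4 are first bases of introns, where the capitals begin with GT, and the fifth is the first base of an exon in Snhg6, where the lower-case part ends with AG.
Snhg1 (chr19:8724180-8724209, plus strand): tcttttcagaGTAAGTAGTGTTAATGGTTT
Alkbh1 (chr12:87443622-87443651, minus strand): cgtgccccagGTAGGAAAGGAGGAGTAGTG
Supt5 (chr7:28325930-28325959, minus strand): cattgctcagGTGGGAGTCGACGGAGCAGC
Parp1 (chr1:180592922-180592951, plus strand): ggtccagcagGTAAGCAAGCGTCTCCAGCC
Snhg6 (chr1:9942372-9942401, minus strand): ttctccccagCATGTAGGTGGCTGTAGTGG
The remaining sites were 33 in coding sequence, 16 in UTRs, 13 in other exons, 8 in introns and 3 in pseudogenes.

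Sequence shared with repeats or with the linker marked some sites. The first 30 bases had more than 1 exact copy in the genome for 18 of the 135 members (13.3%), against 36.8% of all shared sites. At 11 members (8.15%, against 46.5% of all shared sites) at least 50% of these bases were masked as repeats in GRCm38. Such sites are called repeat-masked. For 4 members, picked after their values were seen, the captured RNA began like a short interspersed repeat, B1 in the first 3 and B2 in Ube2w.
Zfp961 (chr8:71971528-71971557, plus strand): ggtaagacatAAGCTGGGCGTGGTGGCGTA
Bri3bp (chr5:125457150-125457179, plus strand): taaaaacttcAACCGGGCGTGGTGGCGCAC
Gm45297 (chr8:99047326-99047355, minus strand): caaatgttggCCAGGCAGTGGTGGCACACG
Ube2w (chr1:16584318-16584347, minus strand): actaaaatgcGGGCTGGAGAGATGGCTCAG
Reads of such copies cannot be told apart by this sequence, of which the genome holds 3, 75, 491 and 6007 copies in that order. At 13 members (9.63%, against 27.0% of all shared sites) at least the last 3 bases before the site were those of the 3′ end of the RNA linker. These are called linker-like below. The rule does not count near matches to the linker with a changed base among these 3. Matches of 6 or 7 bases are shown for 4 of them, where the match is the end of the lower-case part.
Npm1 (chr11:33160344-33160373, minus strand): aaagcgatctGCTCCTGGAGGTGGTAACAA
Ywhah (chr5:33026619-33026648, plus strand): caggcgatctTCTTGGAGGGTTATTAGTAG
Mt2 (chr8:94172805-94172834, plus strand): aaaccgatctCTCGTCGATCTTCAACCGCC
Rfc5 (chr5:117387878-117387907, minus strand): tggccgatctCATTTCTCACCAGGACATTC
Their number is given below beside the counts they enter.

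The control levels spread over a wide range, and a single site took most of the reads. The mean over the 4 controls ran from 10.1 RPM to 13184 RPM with a median of 27.7 RPM. Only 18 members reached 100 RPM and 46 were under 20 RPM. Gm10222, a pseudogene on chromosome 1, had 13054 and 17653 RPM in Drosha controls against 11679 and 11566 RPM in Drosha-deficient libraries, and 9572 and 12456 RPM in Dicer controls against 9022 and 10860.1 RPM in Dicer-deficient libraries. It alone held 61.8% of the summed control mean of the members, and the 10 deepest held 78.6%. The first 30 bases of Gm10222 also occur once in the mitochondrial genome, and reads of the copies cannot be told apart by these bases. Its levels in the deficient libraries were below both controls in the Drosha line and overlapped them in the Dicer line, and neither change passed the test (Drosha log2 fold change −0.39 ± 0.43 (SE), adjusted p = 0.45).

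The next deepest sites were at snoRNA starts. Nop56 encodes a core protein of box C/D snoRNPs and hosts snoRNAs itself. Its site at 130277197 of chromosome 2, 2 nt inside the snoRNA Gm23187, had 819 and 548 RPM in Drosha controls against 919 and 658 RPM in Drosha-deficient libraries, and 1481 and 1432 RPM in Dicer controls against 912 and 941 RPM in Dicer-deficient libraries. All 4 Drosha-line libraries lay under both Dicer controls. The snoRNA gene Gm24339 had 411 and 454 RPM in Drosha controls against 458 and 521.7 RPM in Drosha-deficient libraries, and 1013 and 925 RPM in Dicer controls against 418 and 342 RPM in Dicer-deficient libraries. The Dicer controls stood above every other library at this site. Taf1d, which encodes a subunit of the RNA polymerase I selectivity factor, had 387 and 390.2 RPM in Drosha controls against 142 and 171 RPM in Drosha-deficient libraries, and 323 and 272 RPM in Dicer controls against 191 and 144 RPM in Dicer-deficient libraries, 2 nt inside the snoRNA Gm24357. Here the deficient libraries were below the controls in both lines. Gas5 had its deepest site 2 nt inside the snoRNA Gm22357, with 186 and 108 RPM in Drosha controls against 89.2 and 137 RPM in Drosha-deficient libraries, and 480.2 and 262 RPM in Dicer controls against 314 and 223 RPM in Dicer-deficient libraries, and the groups overlapped in both lines.

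Non-coding host RNAs and ribosomal protein genes filled much of the rest of the 15 deepest. The exonic site of Snhg15 had 247 and 254 RPM in Drosha controls against 94.2 and 103 RPM in Drosha-deficient libraries, and 273 and 217 RPM in Dicer controls against 164 and 138 RPM in Dicer-deficient libraries. The Drosha-deficient libraries were lower (log2 fold change −1.35 ± 0.32 (SE), adjusted p = 0.0016), short of the fold threshold. The first intron base in Snhg1 had 70.3 and 54.4 RPM in Drosha controls against 101 and 81.5 RPM in Drosha-deficient libraries, and 180.1 and 288 RPM in Dicer controls against 242 and 172 RPM in Dicer-deficient libraries. The Drosha groups did not overlap, with higher values in the deficient libraries, but the change did not pass the test (log2 fold change 0.55 ± 0.32 (SE), adjusted p = 0.15). Rpl4 and Rpl5, genes of large-subunit ribosomal proteins, had their sites 1 nt before Snord16a and Snord21, with control means of 126 and 117 RPM. Rpl4 had 88.3 and 59.3 RPM in Drosha controls against 59.2 and 46.7 RPM in Drosha-deficient libraries, and 176 and 179 RPM in Dicer controls against 118 and 108 RPM in Dicer-deficient libraries. Rpl5 had 146 and 111 RPM in Drosha controls against 201 and 109.6 RPM in Drosha-deficient libraries, and 77.9 and 131 RPM in Dicer controls against 91.0 and 70.7 RPM in Dicer-deficient libraries. The deficient libraries of both lines lay below their controls in Rpl4 and overlapped them in Rpl5, and neither gene was called. Esrrb encodes a nuclear receptor of the pluripotency network, and its site was in a UTR. The Esrrb site is repeat-masked, without a further exact copy in the genome. It had 57.6 and 58.5 RPM in Drosha controls against 41.1 and 33.7 RPM in Drosha-deficient libraries, and 185 and 182 RPM in Dicer controls against 269 and 273 RPM in Dicer-deficient libraries. The lines stood apart at Esrrb, with every Dicer-line library at least as high as 182 RPM and every Drosha-line library at most 58.5 RPM. The coding sites were headed by Npm1, which encodes the nucleolar protein nucleophosmin, with a control mean of 177 RPM.

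The other sites among the 15 deepest were also at snoRNA genes or their hosts. The second site of Nop56, at 130277697 and exactly at the start of the snoRNA Gm23650, had 318 and 297 RPM in Drosha controls against 180.0 and 275 RPM in Drosha-deficient libraries, and 886 and 496 RPM in Dicer controls against 561 and 393 RPM in Dicer-deficient libraries. Only the Drosha groups were separate there. The snoRNA gene Gm26397 had 167 and 106 RPM in Drosha controls against 60.2 and 55.0 RPM in Drosha-deficient libraries, and 113 and 107 RPM in Dicer controls against 66.3 and 56.2 RPM in Dicer-deficient libraries, at its annotated start, with lower values in the deficient libraries of both lines. Its change after Drosha deletion passed the FDR but not the fold threshold (log2 fold change −1.21 ± 0.33 (SE), adjusted p = 0.0046). The non-coding gene 1110038B12Rik had 177 and 117 RPM in Drosha controls against 38.4 and 33.6 RPM in Drosha-deficient libraries, and 129 and 148 RPM in Dicer controls against 87.9 and 76.7 RPM in Dicer-deficient libraries, in an exon. It was the one site of the 15 besides Npm1 that fell after Drosha deletion (log2 fold change −1.999 ± 0.33 (SE), adjusted p = 0.00011). Zfas1, a non-coding snoRNA host, had 154 and 111 RPM in Drosha controls against 57.1 and 57.1 RPM in Drosha-deficient libraries, and 161 and 111 RPM in Dicer controls against 140.3 and 125 RPM in Dicer-deficient libraries. Its Drosha groups were separate and its Dicer groups overlapped (log2 fold change −1.20 ± 0.32 (SE), adjusted p = 0.0041).

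**Figure D2:**
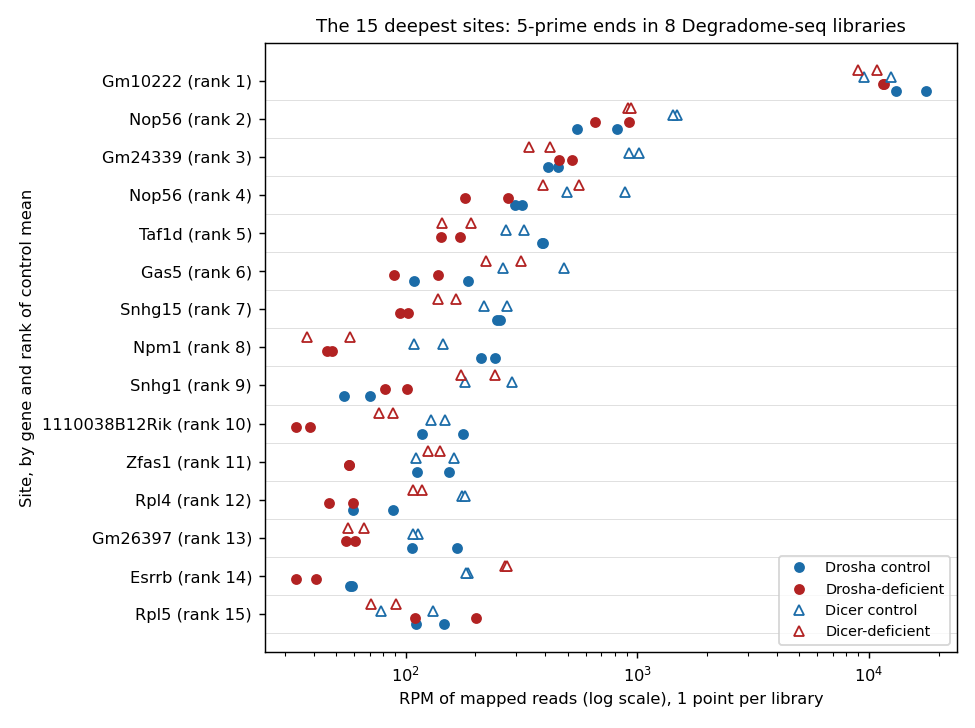
RPM of the 15 deepest sites on a log scale, with 1 point per library. Filled circles are the Drosha line and open triangles the Dicer line, blue for control and red for deficient libraries. Gm10222 stands at 9022 RPM or more in all 8 libraries, and the other 14 sites lie at or under 1481 RPM.

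The depth of a site was set beside the level of its host RNA. Over the 129 members with a value, the authors' mean RNA-seq level of the host ran from −2.51 to 12.3 log2 CPM with a median of 7.45. Pearson's r between log2 control mean and host level was 0.05 across these 129 sites, which share libraries and in part host genes and are not independent. The members came from 110 genes, 99 of them with 1 site. Gas5 had 8 sites, Snhg1 6, Nop56 4, and Ppan and Rian 3 each, and 6 genes had 2. Pairs of sites 1 nt apart lay at the same small RNA start in Gas5, Snhg1, Ppan and Rpl21.

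The control levels of the lines were set side by side. The Dicer control mean was above the Drosha control mean at 74 of the 135 sites, and the ratio of the means ran from 0.0694 to 3.76 with a median of 1.06. The lowest ratio belonged to Mt2, the gene of a metal-binding metallothionein, with 143 and 99.6 RPM in the Drosha controls and 8.39 and 8.45 RPM in the Dicer controls. Just inside the minimum were Cgn, Gas5 at 161036683 and Ube2w, with control means of 10.3, 10.3 and 10.1 RPM. Just outside it were a second site of Odf2 (9.90 RPM), Rmrp (9.88 RPM) and a further site of Rian (9.84 RPM).

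**Figure D3:**
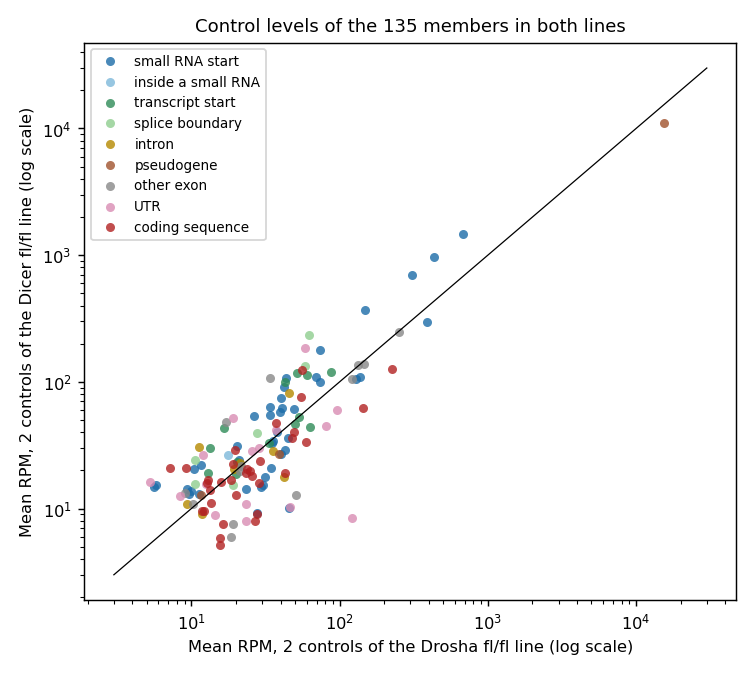
Mean RPM of the 2 Dicer control libraries (vertical axis) against that of the 2 Drosha control libraries (horizontal axis), both on log scales, for the 135 members coloured by position. The line marks equal means, and the ratio of the means (Dicer line over Drosha line) ran from 0.0694 to 3.76.

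After Drosha deletion 29 members fell and 3 rose (limma, adjusted p under 0.05 together with a change of over 1.5 on the log2 scale). By the same rule 37.6% of all 3919 tested sites fell and 9.57% rose, as did 24.7% and 3.29% of the 243 sites under 10 RPM, while the share of the members that fell was 21.5%. By edgeR 30 members fell and 3 rose, beside 38.9% and 9.80% of all sites. At any fold 79 members passed the adjusted p (limma), beside 62.4% of all sites, and 102 had a lower mean, beside 70.8%. The median log2 fold change of the members was −0.84, beside −0.93 for all sites. Both deficient libraries lay below both controls at 84 members (62.2%, against 59.9% of all sites) and above them at 22 members (21.2% of all sites). The control libraries of this comparison took part in choosing the sites. With the sites chosen on the Dicer controls alone, 22 of 124 fell, 3 rose and the median was −0.79. The share of reads that mapped to several places moved with the groups, 37.6% and 41.8% in the controls against 26.9% and 28.7% in the Drosha-deficient libraries, and its part in the fall was not tested. Centring each library on the median of its sites moved the median of all sites to −0.34, and 7 members then fell and 9 rose. The 7 were Gm17092, Odf2, Top2a, Lrrc59, Npm1, Gm16982 and Cad, so the other members named as having fallen, 1110038B12Rik included, were not called after centring. Of the 13 linker-like members 7 fell (53.8%), against 22 of the other 122 (18%), and the median log2 fold change without them was −0.80. The difference between these shares was not tested.

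Coding sequence held 18 of the 29 sites that fell. Of the 33 coding sites, 18 fell (54.5%, beside 37.6% of all sites) and 0 rose (9.57% of all sites). Their median log2 fold change was −1.61 (−1.01 after centring), beside −0.93 (−0.34) for all sites. At 27 (81.8%, beside 59.9% of all sites) both deficient libraries were below both controls. Their summed level was 1269 and 1055 RPM in the Drosha control libraries and 489.7 and 422 RPM in the Drosha-deficient libraries. Without the 7 linker-like sites among them 12 of 26 fell (46.2%) and the median was −1.18. Near matches to the linker, which the rule does not count, were not taken out. The same kind of site under 10 RPM, which the rule left out, had 27 of 79 decreases and a median of −1.17. Of the 16 UTR sites, 2 of them linker-like, 5 fell (31.2%, beside 37.6% of all sites), with a median of −0.99.

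Odf2, which encodes a protein of the centriole appendages, had 49.2 and 69.1 RPM in Drosha controls against 10.2 and 9.31 RPM in Drosha-deficient libraries in its coding sequence, and no library of one group reached the other (log2 fold change −2.57 ± 0.33 (SE), adjusted p = 1.8e-05). Top2a encodes DNA topoisomerase II alpha, which untangles chromosomes in dividing cells. Its site had 168 and 119.6 RPM in Drosha controls against 37.7 and 17.8 RPM in Drosha-deficient libraries (log2 fold change −2.45 ± 0.37 (SE), adjusted p = 5.2e-05). Lrrc59 encodes a leucine-rich repeat protein of the endoplasmic reticulum, and its site had 14.9 and 9.24 RPM in Drosha controls against 1.87 and 2.54 RPM in Drosha-deficient libraries (log2 fold change −2.38 ± 0.39 (SE), adjusted p = 9.7e-05). By the rule of the last 3 bases these 3 sites were not linker-like, and in each the control libraries were both above the deficient ones. The bases before Top2a are still a near match, ending in ccgacct where the linker ends in ccgatct. Npm1 had 244 and 210.3 RPM in Drosha controls against 48.1 and 45.8 RPM in Drosha-deficient libraries (log2 fold change −2.27 ± 0.32 (SE), adjusted p = 2.6e-05), at a linker-like site with 4 genomic copies. The largest fall was at Gm17092, a predicted gene, with 18.8 and 19.1 RPM in Drosha controls against 3.97 and 2.09 RPM in Drosha-deficient libraries (log2 fold change −2.68 ± 0.38 (SE), adjusted p = 3.1e-05). These 5 falls remained called with the libraries centred on the median of all sites and in every fit that left out 1 library.

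Other coding and UTR sites that fell, named after their values were seen, covered varied functions. They included Cad, which encodes an enzyme of pyrimidine synthesis (−2.11), Rest, a repressor of neuronal genes (−1.84), the splicing factor gene Srsf6 (−1.85), the proteasome subunit gene Psmd1 (−1.82), the ER chaperone gene Canx (−1.54) and Tut4, which encodes an enzyme that adds uridines to RNA 3′ ends (−1.66), all as log2 fold changes. The coding site of Hspa9, a mitochondrial chaperone, fell by 1.70 on the log2 scale from 56.8 and 29.1 RPM to 12.7 and 12.2 RPM. Both sites of Ywhah, the gene of an adaptor protein that binds phosphorylated partners, fell by 2.04 and 1.95. The sites of Psmd1 and Hspa9 and the Ywhah site at 33026629 are linker-like. The bases before Srsf6 end in ccgatcc, a near match to the linker end ccgatct that the rule does not count. The first bases of both Ywhah sites have more than 1 genomic copy. Of the 29 decreases, 7 were at linker-like sites and 14 were called in every fit that left out 1 library. After centring Cad alone of the sites named in this paragraph was called, and with a pseudocount of 1 RPM Tut4 was not. Without Drosha control replicate 1, 19 of the 29 were also called, and Canx, Rest, Cad, Srsf6 and Hspa9 were not. Without Drosha-deficient replicate 2, 21 of the 29 were also called, and Rest and Srsf6 were not.

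The 42 sites at small RNA starts gave few calls. Of these, 1 fell and 0 rose, and the median log2 fold change was −0.46, or 0.13 after centring. Both deficient libraries lay below both controls at 22 of the 42 sites (52.4%, beside 59.9% of all sites). They lay above them at 3 (7.14%, beside 21.2%). Their summed level was 3687 and 3039 RPM in the Drosha controls and 2992 and 2744 RPM in the Drosha-deficient libraries. The 1 that fell was at 20889491 in Ppan, which encodes a ribosome assembly factor, with 29.1 and 39.5 RPM in Drosha controls against 11.2 and 11.2 RPM in Drosha-deficient libraries (log2 fold change −1.59 ± 0.33 (SE), adjusted p = 0.00071). It was not called without Drosha control replicate 2. Among the 33 sites under 10 RPM at small RNA starts 3 fell (9.09%), with a median of −0.59. The difference between coding sites and small RNA starts was not tested.

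In Gas5, Snhg1 and Nop56, the host genes with the most sites, limma called 0 sites after Drosha deletion. The 8 sites of Gas5, which span its transcript start and snoRNA starts, had log2 fold changes from −0.81 to 0.03. At 3 of the 8 the deficient libraries were below both controls (37.5%, beside 59.9% of all sites). At its transcript start the libraries were level, with 39.9 and 45.5 RPM in Drosha controls against 38.4 and 40.0 RPM in Drosha-deficient libraries. The 6 sites of Snhg1 ran from −0.98 to 0.55. The first intron base was the highest of them, while 4 of its snoRNA starts had deficient libraries below both controls (66.7% of the 6, beside 59.9% of all sites). Nop56 ranged from −0.46 to 0.67 over 4 sites. The 14 sites in ribosomal protein genes had 1 decrease (7.14%, beside 37.6% of all sites), at the transcript start of Rpl41, and a median of −0.27. The list of snoRNA host genes had 26 sites in 10 genes. Of these 0 were called by limma and 15 had separate groups with the deficient libraries lower, which is 57.7% beside 59.9% of all sites, and the median was −0.55. The list does not hold Ppan, Zfas1 or 1110038B12Rik, which also have sites at snoRNAs or in their hosts, and 1 site each of Ppan and 1110038B12Rik fell. Of the 8 sites in genes of RNA-binding and nucleolar proteins 3 fell, in Npm1, Ddx39b and Srsf6. That share, 37.5%, was near the 37.6% of all sites that fell.

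Transcript starts and splice boundaries had separate groups in both directions, while by the test 1 site of each class fell and 0 rose. The 13 transcript starts had a median log2 fold change of 0.00, with separate groups lower at 5 (38.5%) and higher at 6 (46.2%). Beside these stand 59.9% and 21.2% of all sites. The difference between these shares was not tested. Rpl41 fell, with 54.4 and 45.3 RPM in Drosha controls against 16.5 and 15.7 RPM in Drosha-deficient libraries (log2 fold change −1.62 ± 0.32 (SE), adjusted p = 0.00048), and was not called without Drosha control replicate 1. Tmsb10 had 72.6 and 33.3 RPM in Drosha controls against 121 and 91.5 RPM in Drosha-deficient libraries (log2 fold change 1.09 ± 0.37 (SE), adjusted p = 0.017), which did not reach the fold threshold. Of the 6 splice boundaries, Parp1, whose protein senses DNA breaks, fell at the first base of an intron, with 10.6 and 10.5 RPM in Drosha controls against 3.10 and 2.85 RPM in Drosha-deficient libraries (log2 fold change −1.79 ± 0.36 (SE), adjusted p = 0.00051). Brd8, the gene of a bromodomain protein, had 10.3 and 11.02 RPM in Drosha controls against 29.4 and 26.8 RPM in Drosha-deficient libraries at the first base of an intron (log2 fold change 1.39 ± 0.33 (SE), adjusted p = 0.0017), under the fold threshold.

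The 3 sites that rose were in predicted genes. Gm45297, whose captured RNA starts like a B1 repeat with 491 genomic copies, had 20.3 and 22.0 RPM in Drosha controls against 163 and 116 RPM in Drosha-deficient libraries in an intron (log2 fold change 2.697 ± 0.33 (SE), adjusted p = 1.3e-05). Gm16580, at a linker-like intronic site, had 11.4 and 11.2 RPM in Drosha controls against 69.8 and 52.0 RPM in Drosha-deficient libraries (log2 fold change 2.40 ± 0.33 (SE), adjusted p = 2.5e-05). The pseudogene Gm11408 had 41.0 and 36.9 RPM in Drosha controls against 175 and 135 RPM in Drosha-deficient libraries (log2 fold change 1.98 ± 0.32 (SE), adjusted p = 8.9e-05). In all 3 the deficient libraries were far above the controls, and all 3 were called under every alternative scaling and in every fit without 1 library. Ube2w, which starts like a B2 repeat, had 9.45 and 9.17 RPM in Drosha controls against 29.3 and 22.7 RPM in Drosha-deficient libraries (log2 fold change 1.46 ± 0.34 (SE), adjusted p = 0.0014), under the fold threshold. Of the 8 intronic sites 2 rose and 0 fell, with a median of 0.81, and the 15 intronic sites under 10 RPM had 4 rises, 0 falls and a median of 0.51. Of all sites 9.57% rose and 37.6% fell.

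**Figure D4:**
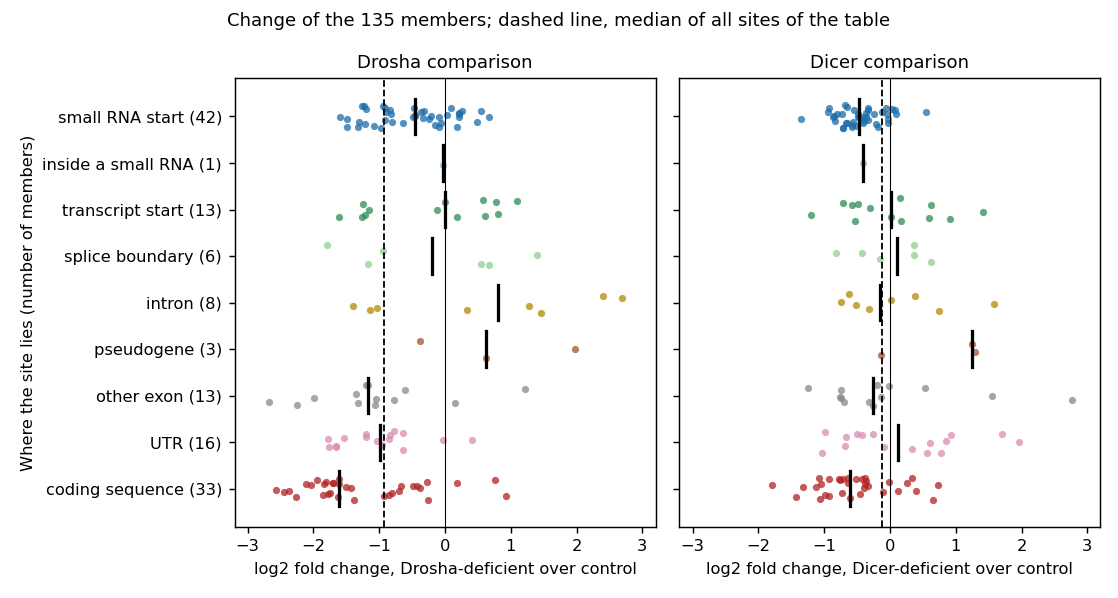
Log2 fold change of each of the 135 members after Drosha deletion (left) and Dicer deletion (right), by position, with the number of members in brackets. Points are sites, short bars are medians and the dashed line is the median of all sites of the table (−0.93 and −0.12). Coding sites have the lowest median in the Drosha comparison, at −1.61.

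After Dicer deletion no member passed the test. The count was 0 in either direction by limma (0.00% of all 4666 sites fell and 0.00% rose) and by edgeR on reads recovered from the RPM values. The study's own edgeR test, at the same thresholds but with another scaling of the libraries, did report sites decreased in Dicer-deficient cells. Those calls were not used here. At an unadjusted p under 0.05 and a log2 fold change past 1.5, 1 member was lower and 4 were higher by both tools, beside 1.29% and 1.16% of all sites by limma. The mean was lower at 98 members, beside 56.7% of all sites. The members' median log2 fold change was −0.39, against −0.12 for all sites. Both deficient libraries lay below both controls at 63 members (46.7%, against 27.4% of all sites) and above them at 19 (16.8% of all sites). With members chosen on the Drosha controls alone the median was −0.38 over 142 sites. The share of reads mapping to several places was 38.4% and 38.8% in the controls and 31.7% and 33.5% in the deficient libraries, and its part was not tested.

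At the 42 small RNA starts the Dicer-deficient libraries were below both controls in 21 and above them in 0, with a median log2 fold change of −0.47. Their summed level was 5949 and 5039 RPM in the Dicer controls against 3798 and 3193 RPM after Dicer deletion. The 33 coding sites, with the same 7 linker-like ones, had a median of −0.61 and 21 with the deficient libraries lower. The 16 UTR sites, 2 of them linker-like, had a median of 0.12, 5 with the deficient libraries lower and 7 with them higher. The shares lower were 50% at small RNA starts, 63.6% in coding sequence and 31.2% in UTRs. Beside these stand 46.7% of all members and 27.4% of all sites. The shares higher were 0%, 6.06% and 43.8% in the same order, beside 14.1% of all members and 16.8% of all sites. Differences between these shares were not tested. 

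The most negative values with separate groups were at Odf2, Npm1, Gm24339, Gm20604 and Rpl10a. Of these sites 0 passed the test. Odf2 had 43.8 and 22.9 RPM in Dicer controls against 13.0 and 6.35 RPM in Dicer-deficient libraries (log2 fold change −1.79 ± 0.49 (SE), adjusted p = 0.46). The linker-like site of Npm1 had 145 and 108 RPM in Dicer controls against 57.5 and 37.3 RPM in Dicer-deficient libraries (log2 fold change −1.43 ± 0.35 (SE), adjusted p = 0.46). Gm20604, a predicted gene with a coding site, had 21.6 and 16.6 RPM in Dicer controls against 8.89 and 6.38 RPM in Dicer-deficient libraries, and its log2 fold change was −1.32. Rpl10a, a gene of a large-subunit ribosomal protein, had 8.57 and 13.2 RPM in Dicer controls against 4.56 and 4.34 RPM in Dicer-deficient libraries and a log2 fold change of −1.24. The 2 groups of each site did not overlap, but the control libraries of Odf2 and Rpl10a also lay well apart from each other.

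The most positive values with separate groups were at Rian, Mt2, Zfp961, Gm45297 and Rpl29. Rian is a maternally expressed non-coding RNA of the Dlk1-Meg3 locus that hosts many C/D snoRNAs, and its site at 109650669 carries the C box letters. It had 4.05 and 7.84 RPM in Dicer controls against 35.8 and 42.1 RPM in Dicer-deficient libraries (log2 fold change 2.76 ± 0.41 (SE), adjusted p = 0.46). Its other members had 75.4 and 31.5 RPM in Dicer controls against 57.4 and 38.5 RPM in Dicer-deficient libraries at 109654629, and 30.6 and 17.9 RPM in Dicer controls against 41.7 and 28.3 RPM in Dicer-deficient libraries at 109636014, both with overlapping groups. Zfp961 had 19.1 and 40.6 RPM in Dicer controls against 93.2 and 89.1 RPM in Dicer-deficient libraries (log2 fold change 1.71 ± 0.41 (SE), adjusted p = 0.46), and Gm45297 22.3 and 23.6 RPM in Dicer controls against 72.9 and 65.7 RPM in Dicer-deficient libraries (log2 fold change 1.59 ± 0.29 (SE), adjusted p = 0.46). The transcript start of Rpl29 had 10.2 and 27.1 RPM in Dicer controls against 41.7 and 47.8 RPM in Dicer-deficient libraries (log2 fold change 1.42 ± 0.49 (SE), adjusted p = 0.47). This site of Rpl29 is linker-like.

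The change differed between the deletions at 3 members by the interaction test (limma over the 2595 shared sites, FDR under 0.05), beside 1.70% of all shared sites lower and 3.08% higher in the Drosha comparison, or 4.78% together. Mt2 had 143 and 99.6 RPM in Drosha controls against 42.3 and 28.5 RPM in Drosha-deficient libraries, but 8.39 and 8.45 RPM in Dicer controls against 52.8 and 20.9 RPM in Dicer-deficient libraries. The difference was −3.75 ± 0.64 on the log2 scale (SE, adjusted p = 0.024), and the site is linker-like with a match of 7 bases. Rpl41 fell in the Drosha comparison and had 53.1 and 39.7 RPM in Dicer controls against 51.8 and 50.5 RPM in Dicer-deficient libraries, with overlapping groups, in the Dicer comparison. Its difference was −1.77 ± 0.41 (SE, adjusted p = 0.047). Gm24339 was higher in the Drosha-deficient libraries and lower in the Dicer-deficient libraries than in the respective controls, and the difference was 1.53 ± 0.36 (SE, adjusted p = 0.049). By edgeR Mt2 alone was called. Without any 1 of the 4 Drosha libraries, or without Dicer-deficient replicate 1, limma called 0 members in either direction. Without Dicer control replicate 1 it called 18 lower and 6 higher, without Dicer control replicate 2 it called 1 and 0, and without Dicer-deficient replicate 2 it called 5 and 1.

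**Figure D5:**
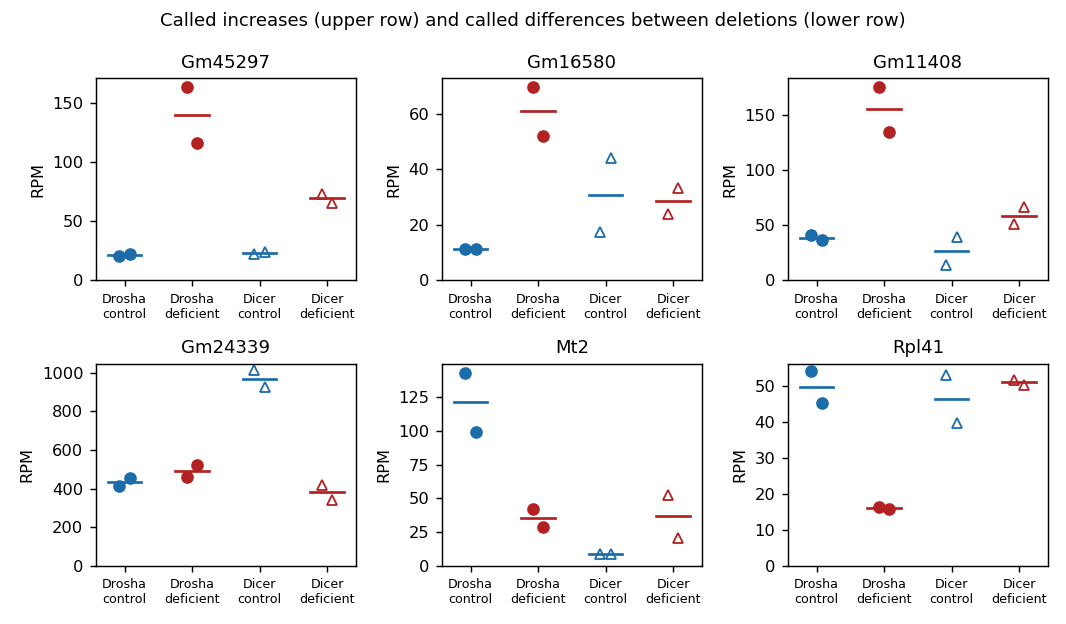
RPM (vertical axis, from 0) in the 8 libraries at the 3 members that rose after Drosha deletion (upper row) and the 3 whose change differed between the deletions (lower row). Each point is a library and each bar the mean of 2, with circles for the Drosha line and triangles for the Dicer line. At Mt2 the Drosha-deficient libraries are lower and the Dicer-deficient libraries higher than their controls.

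None of the 135 members was in the genes of 5′P formation and decay, such as Xrn1, Dcp2, Drosha and Dgcr8, a list of 18 genes. In the full tables that list had 5 sites in the Drosha experiment, of which 1 fell, at 18284563 in Dgcr8 (log2 fold change −2.31), and 2 sites in the Dicer experiment, of which 0 were called. By gene symbol, members were also absent from the lists of ribosomal protein pseudogenes, abundant structured RNAs, mitochondrial genes, histone genes and glycolysis genes. A match by symbol does not show what sequence a site holds. The first 30 bases of the member Gm10222 also occur in the mitochondrial genome. The lists of pluripotency genes and translation factors had 2 members each. Nanog, a core pluripotency factor gene, had 26.5 and 11.9 RPM in Drosha controls against 12.1 and 8.13 RPM in Drosha-deficient libraries, and 45.8 and 58.7 RPM in Dicer controls against 34.8 and 30.2 RPM in Dicer-deficient libraries, at a UTR site that is linker-like and repeat-masked, and was called in neither line. Eif4a1, the gene of a translation initiation helicase, and Pabpc4, the gene of a polyA-binding protein, had log2 fold changes of −1.20 and 0.75 after Drosha deletion, and neither was called. Paired across the site as an Argonaute cut would need, mature miRNAs had at least 5 mismatches at every member, with a median best match of 8 mismatches in members and in the 243 sites under 10 RPM.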

How the data were processed

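Degradome-seq (8 libraries) and RNA-seq (6 libraries) were done by the authors on ESCs. For Degradome-seq the authors trimmed reads, mapped them to GRCm38 (mm10), piled up read starts and deposited sites as RPM, that is reads starting at the site scaled to the mapped reads of the library; STAR, Trimmomatic 0.38.0 and edgeR 3.26.1 are named in the submitters' processing notes. The RNA-seq table deposited by the authors was used only for its mean log2 CPM column. Both kinds of table also hold the authors' fold changes, p-values and FDR, which were not used. Library totals, of all mapped and of uniquely mapped reads, are those the study gives. Multiplying the RPM by the totals of all mapped reads, in the unit of RPM, gave whole reads, within 0.05 reads, for 100% of values, while the low values of a column alone were enough for this check in 5 of the 8 libraries.

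The members and gene lists were chosen with earlier results of these data known, and the classes by position, the definition of linker-like sites and the repeat starts were set after seeing the sites. Groups came from the labels. Each comparison was fitted with limma 3.58.1 (R 4.3.3) on log2(RPM + 0.1) with a mean-variance trend, two-sided, over all sites of a table, with Benjamini-Hochberg adjustment. A site was called at an FDR under 0.05 where the log2 change was also beyond 1.5 in size, and fold changes on this scale understate the change of low sites. The difference between the deletions was an interaction contrast over the shared sites, called at FDR under 0.05. In every fit 2 libraries stood for a group. The script was tested on simulated data. Named with values in every library were the 15 deepest members, the 5 lowest and 5 highest in each comparison (called, or else with groups that did not overlap), members called for the difference, and sites at the 10 RPM minimum; of each list the 3 deepest were marked, and those not described singly are in its counts. Copies were exact matches of the first 30 bases in GRCm38. Alternatives covered pseudocount, trend, scaling, filter, thresholds, replicate block, edgeR 4.0.16 on recovered reads, the choice of members and leaving out each library. The edgeR fits took mapped reads as library sizes, without the trimmed mean of M values that the study used.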

Additional observations from a re-analysis of the deposited data

Results flagged for a closer look

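The change differed between the deletions by the interaction test (limma, FDR under 0.05) at 3 members. The log2 difference, Drosha minus Dicer comparison, was 1.53 at Gm24339, −3.75 at Mt2 and −1.77 at Rpl41. By edgeR the adjusted p of the difference was 0.054 at Gm24339, 0.028 at Mt2 and 0.054 at Rpl41. The ESC line and the way of deleting the gene differ together between the comparisons and cannot be told apart from the gene deleted.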

How the results depend on the processing

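For the Drosha comparison, 29 decreases became 7 with libraries centred on the median of all sites, 57 at a fold threshold of 1, 46 of 216 sites at a minimum of 5 RPM and 17 of 89 at 20 RPM, and lay between 21 and 33 with 1 library left out. The 3 increases became 9 when centred, 8 at the lower fold threshold and 6 at 5 RPM, and lay between 3 and 5 with 1 library left out. The median log2 fold change of −0.84 became −1.10 with sizes from uniquely mapped reads, −0.24 when centred and −1.03 without sites at or inside small RNAs (an alternative chosen after seeing the data), and lay between −1.01 and −0.65 with 1 library left out. The other alternatives kept these counts within 1.5 times. The cause of these shifts was not tested.

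For the Dicer comparison the replicate block called 1 decrease and 5 increases, and leaving out 1 library gave 0 to 1 increases. Same-numbered libraries deviated together with a correlation of 0.13 in the Drosha table and 0.53 in the Dicer table over sites, but with 2 libraries per group and nothing in the labels behind the numbers this pairing stays a hint, and the block left the 29 and 3 Drosha calls as they were. For the difference between the deletions, with 2 members lower and 1 higher in the Drosha comparison, the counts were 1 and 0 at a pseudocount of 1 RPM, 0 and 0 without the trend, 5 and 1 with sizes from uniquely mapped reads, 1 and 6 when centred, 35 and 6 with the replicate block, and 1 and 0 by edgeR. The higher count was 2 at 5 RPM and 0 without small RNAs by biotype, and the lower count was 1 without linker-like sites. With 1 library left out they ran from 0 to 18 and from 0 to 6. The difference was not recomputed for members chosen on the control libraries of 1 line or at a fold threshold.

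Several deep sites with changes near 0 changed sign. When centred, the Drosha log2 fold change was 0.21 at Gm10222, 0.13 at Nop56 130277697, 0.24 at Gas5 161036059 and 0.13 at Rpl4, and the Dicer value was 0.0016 at Zfas1. With sizes from uniquely mapped reads the Drosha value was −0.0441 at Nop56 130277197, −0.0833 at Gm24339 and −0.042 at Rpl5. With 1 library left out the Drosha values ran from −0.0741 to 0.51 at Nop56 130277197, −0.75 to 0.0339 at Gas5 161036059 and −0.22 to 0.65 at Rpl5. The Dicer values ran from −0.33 to 0.0484 at Gm10222, −0.86 to 0.0129 at Gas5 161036059, −0.50 to 0.18 at Snhg1 8724190, −0.28 to 0.26 at Zfas1, −0.71 to 0.0414 at Rpl5 and −0.0545 to 0.37 at Rpl41. Counting error was 3.63% of the value at the median number of reads, and 2 libraries per group limit every comparison.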
